A study of Mus musculus with 2 samples.

Results

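The interferon-stimulated genes described here are a list of 39 genes that cells switch on when interferon binds its receptor, and they were examined in pre CFU-E of mice recovering from chemotherapy. Every probe of the array whose RefSeq accession belongs to a listed gene was taken, which gave 48 probes for 37 of the 39 genes, out of 20660 named genes in all. For Mx1 and Mx2, which encode antiviral dynamin-like GTPases, no probe was matched. Pre CFU-E are early progenitors already directed to the erythroid line, and here they were bone marrow cells sorted as c-Kit+, endoglin+ and CD150+ but Lin- and Sca1-, with CD41Lo and FCgRII/III-/Lo staining. They came from C57BL/6 wild-type (WT) mice and from ESAM-KO mice, which carry a knockout of endothelial cell-selective adhesion molecule, a junctional protein that also marks hematopoietic stem cells. The knockout is bred through the germline and is not limited to blood cells. All mice, 8 to 12 weeks old, had received 1 injection of 120 mg/kg of 5-fluorouracil (5-FU), a drug that kills cycling cells, and were killed on day 8. Cells of 3 mice were pooled for each genotype and measured on 1 Agilent array, so that values come without SD or p-value, and genotype cannot be told apart from pool, sort or amplification. Untreated mice and interferon-treated cells were not analysed here, so each comparison is ESAM-KO against WT after 5-FU.

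Interferons are secreted by cells that sense foreign or misplaced nucleic acid. Type I interferons bind the receptor of Ifnar1 and Ifnar2, whose kinases Jak1 and Tyk2 phosphorylate transcription factors such as Stat2, which joins Irf9 in a complex that binds the interferon-stimulated response element (ISRE) in the promoters of its targets. Interferon gamma acts through Ifngr1 and Ifngr2 and leads to binding at the gamma-activated site (GAS). The targets encode sensors of viral RNA, enzymes that degrade RNA or block its translation, a ubiquitin-like modifier, and membrane proteins that stop viral entry or release. In the bone marrow, interferon signalling is known for its effects on stem cells and on red cell production.

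Intensities are given as the scanner software processed them, WT first. Ratios are log2 values of ESAM-KO over WT after each array was set relative to its 75th percentile of intensity, which was 201.4 for WT and 251.1 for ESAM-KO. This scaling lowers every log2 ratio by 0.32. Errors are those of the scanner software for spot noise, were about 0.20 on the log2 scale for bright probes, and do not include differences between mice. Between 57.3% and 61.1% of the spots of an array were well above background. The check of the genotypes was weak, since the only probe of Esam read 27.4 for WT and 20.6 for ESAM-KO, near the lowest signals well above background on the arrays, 12.6 and 13.2. All 14 of 14 early erythroid genes examined as a check of the cell type, among them Gata1, Klf1 and Epor, were detected well above background in both genotypes. Slamf1, which encodes the sort antigen CD150, was also near these lowest signals, at 17.8 and 23.0.

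Most interferon-stimulated genes were lower on the ESAM-KO array. Of the 37 genes with a probe, 33 gave signals well above background in both genotypes, and 26 of these 33 had a log2 ratio below 0, compared with 51.5% of all genes detected in this way. The median over the 33 was -0.89, or 1.86-fold lower in ESAM-KO, while the median of all named genes was -0.02. By more than 2-fold, 14 of the 34 genes with a ratio or a bound were lower (41.2%), beside 8.43% of all named genes, and 2 were higher (5.88%), beside 6.99% of all named genes. The genes lower by more than 2-fold were Rsad2, Parp14, Oas3, Gbp3, Parp9, Samd9l, Gbp2, Oasl2, Isg20, Trim30a, Irf1, Xaf1, Ddx58 and Ifi27. The genes higher by more than 2-fold were Stat2 and Ifitm1. Without any scaling between the arrays 7 genes were lower and 2 higher, beside 5.12% of all named genes lower, and with each array set to its median 19 were lower and 0 higher, beside 10.8% of all named genes lower. In a pool of sorted cells, fewer cells of a type and less RNA per cell cannot be told apart.

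**Figure D1:**
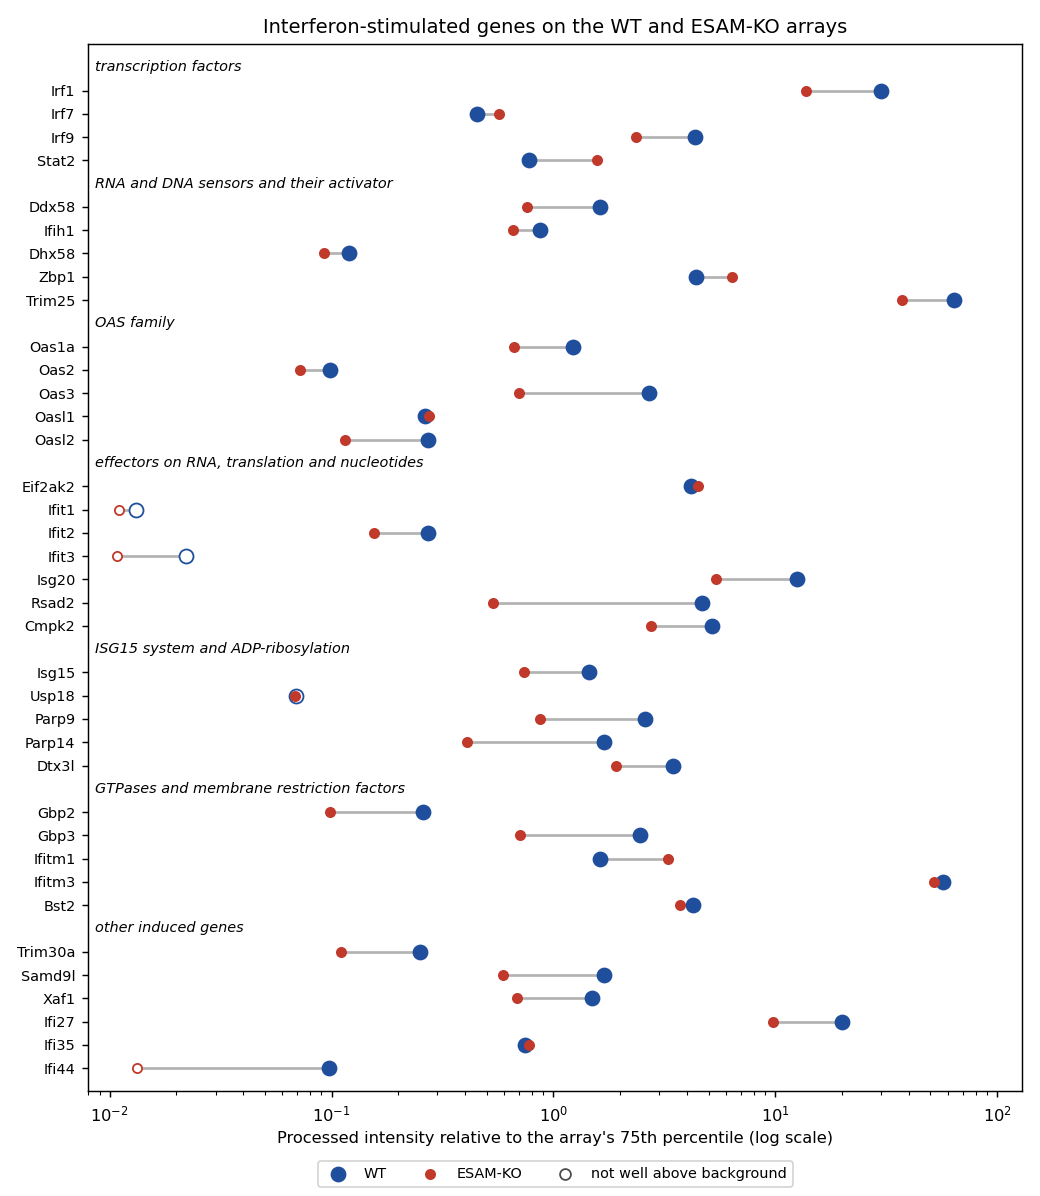
Intensity of each interferon-stimulated gene on the WT array (large blue points) and the ESAM-KO array (small red points), relative to the 75th percentile of the array, on a log axis, with genes grouped by role. Open points were not well above background. The ESAM-KO point lies to the left of the WT point for 26 of the 33 genes above background on both arrays, with the longest line at Rsad2.

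Markers of some other cells were also lower. All 10 of the 10 neutrophil markers with a probe were more than 2-fold lower for ESAM-KO, beside 8.43% of all named genes. Log2 ratios ran from -4.20 for Ltf to -1.16 for Mmp8 among the 9 above background on both arrays. The summed intensity of the 10 markers was 243.2 for WT and 35.6 for ESAM-KO in units of the 75th percentile of the array. It differed by -2.77 on the log2 scale. The same sum over the interferon-stimulated genes differed by -0.62, from 237.1 to 154.2. The brightest genes weigh most in these sums. Among the neutrophil markers S100a9 read 31988 and 6901, and in the interferon-stimulated list Trim25 read 12870 and 9327 and Ifitm3 11495 and 13082. The median log2 ratios were -3.30 for the neutrophil markers and -0.89 for the interferon-stimulated genes. Of the 7 B cell markers with a ratio or a bound, 4 were lower by more than 2-fold (57.1%), beside 8.43% of all named genes. Among these 4, Ebf1 and Igll1 rest on bounds. The summed level of the B cell markers was 2.91 for WT and 0.93 for ESAM-KO, and Ms4a1 was above background on neither array. Macrophage markers had summed levels of 34.1 and 30.4, most of it from Csf1r, which read 6554 and 7310. Of the 6 with a ratio, Vcam1 was lower (log2 ratio -2.88) and C1qa was higher (1.19) by more than 2-fold, and of the 11 genes with a probe Cd163, C1qc, Mrc1 and Mertk were above background on neither array and Adgre1 on the ESAM-KO array only. Plasmacytoid dendritic cells, known as a major source of type I interferon, were represented by 9 markers with summed levels of 38.4 and 35.6. Most of this signal came from Siglech, which read 6948 and 8383 (log2 ratio -0.05). Of the other markers Spib was lower (-3.80), and Ccr9 and Klk1 were above background on neither array. T and NK cell markers had summed levels of 13.9 and 15.4, most of it from Nkg7, which read 1833 and 2465. The 5 above background on both arrays had log2 ratios above 0, from 0.04 for Lck to 0.42 for Cd3e. Cd3d, above background on the WT array only, was at least 3.75-fold lower. Cd3g, Cd2, Klrb1c and Ncr1 were above background on neither array. Of the 7 stem and multipotent progenitor markers with a ratio or a bound, Ly6a, which encodes the sort antigen Sca1, was at least 5.79-fold lower and Hlf was at least 7.58-fold higher. The summed levels of the list were 7.19 and 7.48, most of it from Cd48, which read 1005 and 1356. The early erythroid genes themselves had a median log2 ratio of -0.48, and 4 of the 14 were lower by more than 2-fold, beside 8.43% of all named genes. The 4 were Slc4a1 (-2.87), Hba-a1 (-2.26), Hbb-bt (-1.61) and Nfe2 (-1.34). The part of these cell populations in the ratios of the interferon-stimulated genes was not tested.

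The lower ratios were spread over the range of signal. When all genes above background on both arrays were divided into quartiles of mean signal, 3 of 7 interferon-stimulated genes of the dimmest quartile were lower by more than 2-fold, beside 9.58% of all genes there. In the next quartiles 4 of 10 and again 4 of 10 were lower, beside 11.1% and 6.95%. In the brightest quartile, where ratios past 2-fold are rare, 3 of 6 were lower, beside 1.84%. These 3, Irf1, Isg20 and Ifi27, were within 2-fold without scaling, and the dimmer probe of Irf1 was higher, at 2.35. The medians of the interferon-stimulated genes in the quartiles lay between -0.93 and -0.81.

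**Figure D2:**
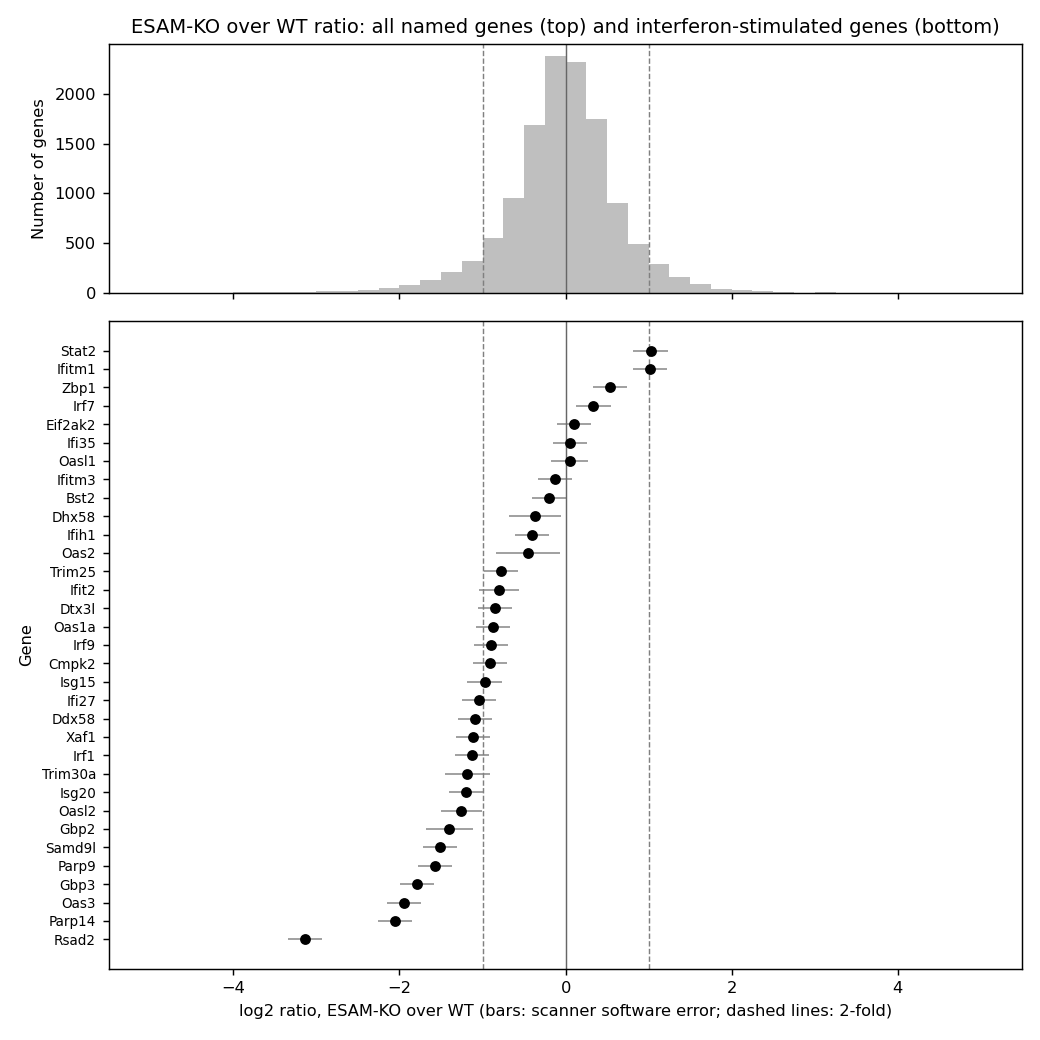
Top, number of named genes above background on both arrays by log2 ratio of ESAM-KO over WT. Bottom, log2 ratio of each of the 33 interferon-stimulated genes above background on both arrays, sorted, with bars for the scanner software error and dashed lines at 2-fold. The genes run from Stat2 at 1.02 to Rsad2 at -3.14, and 26 lie left of 0.

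The promoters of several of these genes are shown because the ISRE is what the group is known to share. RefSeq promoters of assembly GRCm38.p6, from 250 bases before to 50 bases after the start of the gene, were matched for 30 of the 39 genes. The ISRE core was searched on both strands as GAAA, 2 bases of any kind and again GAAA, so that it can also read TTTC, 2 bases and TTTC along the gene. It was present for 15 of the 30 genes and in 43.2% of their 37 promoters, beside 3.44% of the 32851 promoters of the table. The GAS core, searched as TTCNNNGAA, which reads the same on both strands, was present for 8 of the 30 genes and in 21.6% of their promoters, beside 8.30% of all promoters. Both motifs can overlap, as they did in the promoters of Bst2 and Ifitm3. Each sequence below reads 5′ to 3′ along the gene, up to 30 bases are shown on each side, and capitals mark the matches. A match is a match of letters only, and no binding was measured.

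The first 4 sequences belong to genes that were more than 2-fold lower. They lie at chr12:26456533-26456602 on the minus strand for Rsad2, chr5:120777695-120777764 on the minus strand for Oas3, chr3:142559969-142560043 on the plus strand for Gbp3 and chr3:142620574-142620643 on the plus strand for Gbp2. The matches begin 120, 75, 45 and 59 bases before the start of the gene, and Gbp3 has a second one that overlaps the first.
Rsad2: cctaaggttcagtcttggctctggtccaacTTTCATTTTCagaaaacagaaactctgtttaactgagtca
Oas3: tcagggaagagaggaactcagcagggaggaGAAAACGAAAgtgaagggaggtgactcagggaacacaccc
Gbp3: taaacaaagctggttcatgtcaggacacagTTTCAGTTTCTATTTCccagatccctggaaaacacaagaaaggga
Gbp2: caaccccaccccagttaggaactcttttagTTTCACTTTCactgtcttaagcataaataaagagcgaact

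The next sequences belong to genes with an ISRE match that were not lower by more than 2-fold. They lie at chr4:156200845-156200926 on the minus strand for Isg15, chr8:71537557-71537632 on the minus strand for Bst2 and chr10:128270248-128270315 on the plus strand for Stat2, which was higher in ESAM-KO. Isg15 has 3 overlapping matches that begin 78 to 66 bases before the start, and Bst2 has 2, at 130 and 124 bases. The match of Stat2 begins 222 bases before its start.
Isg15: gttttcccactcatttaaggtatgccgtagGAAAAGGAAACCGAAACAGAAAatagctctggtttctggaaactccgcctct
Bst2: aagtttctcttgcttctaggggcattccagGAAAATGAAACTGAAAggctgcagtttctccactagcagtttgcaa
Stat2: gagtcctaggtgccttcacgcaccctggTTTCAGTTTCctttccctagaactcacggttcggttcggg

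Irf1, whose promoter is known to respond to interferon gamma through a GAS, has no ISRE match in this window and 1 GAS match, 90 bases before its start, at chr11:53769894-53769962 on the plus strand.
Irf1: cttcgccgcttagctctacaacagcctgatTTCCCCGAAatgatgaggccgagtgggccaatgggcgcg

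Genes with and without the ISRE match had medians close to each other. Of the 13 genes with a match and a ratio, 6 were lower and 1 was higher by more than 2-fold, with a median log2 ratio of -0.98. Of the 15 genes without a match, 5 were lower and 1 was higher, with a median of -0.87 over the 14 above background on both arrays. Among genes outside the list, the 362 with a match had a median of -0.04, and 9.39% were lower by more than 2-fold, beside 7.18% of the 9719 without a match. These are descriptions, since the members of each class share 1 pair of arrays.

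**Figure D3:**
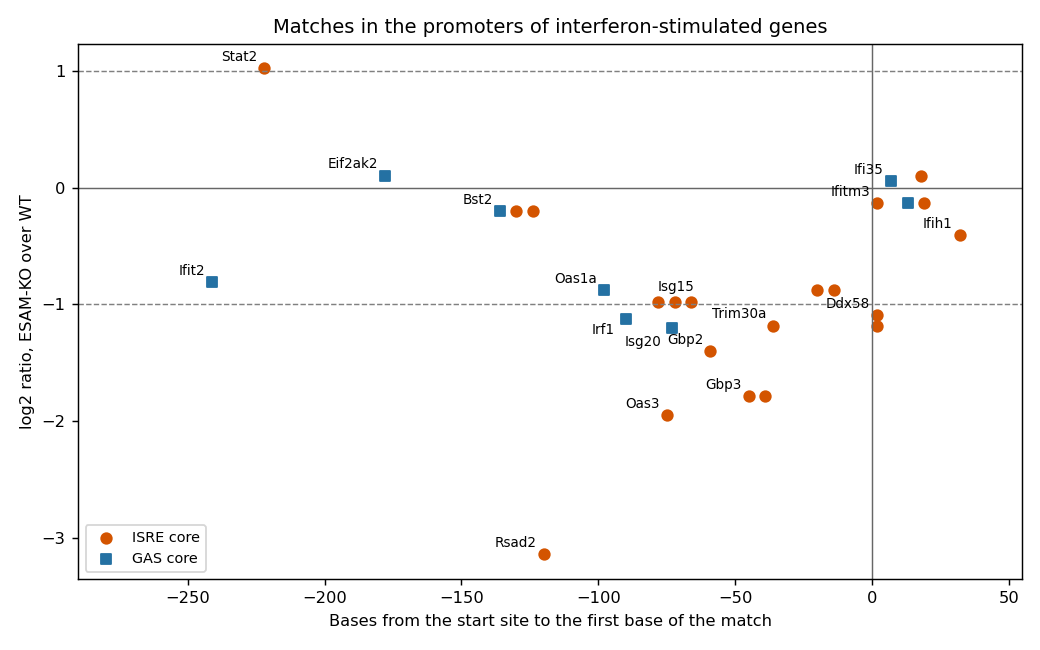
Log2 ratio of ESAM-KO over WT for interferon-stimulated genes with a promoter match, against the position of the first base of the match relative to the start of the gene. Circles are ISRE cores, squares are GAS cores, and dashed lines mark 2-fold. Genes with an ISRE match range from Stat2 at 1.02 to Rsad2 at -3.14, so that a match stands beside ratios of either sign.

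Among the transcription factors of the response, the ratios went in both directions. Stat2, a factor of the type I response, read 155.9 for WT and 394.9 for ESAM-KO, a log2 ratio of 1.02, or 2.03-fold higher. It stayed higher but within 2-fold with each array set to its median, at 0.89, and with normexp background correction, at 0.77. Irf9, the DNA-binding subunit of the same complex, read 879.5 and 589.8 and was lower by less than 2-fold (-0.89). Irf7, which drives the interferon alpha genes, read 90.8 and 142.8 (0.34). Stat2 and Irf9, which act together at the ISRE, thus did not share a direction.

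Irf1, a transcription factor of the interferon gamma response, was measured by probes that disagreed. Its brighter probe, for NM_008390, read 6032 for WT and 3444 for ESAM-KO, 2.18-fold lower (log2 ratio -1.13). Its other probe, for NM_001159393, read 52.3 and 333.8, 5.12-fold higher (2.35). With the mean of its probes Irf1 would have a ratio of 0.61, so its direction depends on which probe is taken.

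Of the 5 genes for sensors of nucleic acid and an activator of these, 1 was lower by more than 2-fold, beside 8.43% of all named genes. Ddx58, which encodes the RNA helicase RIG-I, read 325.3 for WT and 190.4 for ESAM-KO, 2.13-fold lower (log2 ratio -1.09). Its other probe gave nearly the same ratio at a lower signal, with 26.8 and 15.9 (-1.08). Trim25, a ubiquitin ligase that activates RIG-I, read 12870 and 9327 (-0.78). Dhx58, encoding the related helicase LGP2, was close to background on both arrays at 24.2 and 23.2, with a ratio of -0.37 and an error of 0.31.

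For the other sensors the direction depended on the probe. The brighter probe of Ifih1, which encodes the helicase MDA5, read 174.5 for WT and 164.5 for ESAM-KO (log2 ratio -0.40). Its other probe read 11.2, not well above background, and 139.3, at least 8.88-fold higher. Where a probe was above background on 1 array only, as here, the ratio is a bound, in which the dim array enters with the probe's own signal or with its lowest signal well above background, whichever is higher. Zbp1, a sensor of Z-form nucleic acid that can trigger cell death, read 886.0 and 1596 with its brighter probe (0.53). Its other probe read 21.7 and 15.4, the latter not well above background, at least 1.75-fold lower.

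The OAS enzymes make short adenylate chains that activate RNase L, which then degrades RNA. Oas3 read 541.8 for WT and 175.2 for ESAM-KO, 3.86-fold lower (log2 ratio -1.95). Oas1a, one of a family of closely similar copies that its probes may not separate, read 245.9 and 166.9 (-0.88), and its other probe read 241.8 and 145.4 (-1.05). Oas2 was near background, at 19.8 and 18.02, with a ratio of -0.45 and an error of 0.39.

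The OAS-like genes differed from each other although they lie side by side on chromosome 5. Oasl2 read 55.04 for WT and 28.8 for ESAM-KO, 2.38-fold lower (log2 ratio -1.25, error 0.25). Oasl1 read 53.4 and 68.8 (0.05). Over the whole OAS family, 2 of 5 genes were lower by more than 2-fold, beside 8.43% of all named genes, with a median of -0.88. Oasl2 was within 2-fold without scaling and with normexp.

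Rsad2 had the lowest ratio of the list. The gene encodes viperin, an enzyme that makes a nucleotide analog which ends viral RNA chains. It read 945.1 for WT and 133.7 for ESAM-KO, 8.82-fold lower, with a log2 ratio of -3.14 and an error of 0.21. Only 0.349% of the genes above background on both arrays had a lower ratio. Cmpk2, a mitochondrial nucleotide kinase gene next to Rsad2 on chromosome 12, was lower by less than 2-fold with both of its probes. These read 1047 and 694.2 (-0.91) and 703.6 and 457.9 (-0.94). The neighbouring genes thus lay on the same side of 0 with ratios of different size.

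Isg20, an exonuclease that degrades single-stranded RNA, was lower by more than 2-fold with both of its probes. The brighter read 2515 for WT and 1363 for ESAM-KO (log2 ratio -1.20), and the other read 1239 and 605.5 (-1.35). Eif2ak2, the kinase PKR that halts translation when it binds double-stranded RNA, read 843.0 and 1129 (0.10). The Ifit genes encode proteins that bind foreign RNA and translation factors, and they gave little signal. Ifit2 read 54.5 and 38.9 (-0.81), whereas Ifit1, at 2.64 and 2.77, and Ifit3, at 4.45 and 2.70, were above background on neither array and have no ratio. Both Ifit1 and Ifit3 have 2 ISRE matches in their promoters.

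Isg15 encodes a ubiquitin-like protein that is joined to other proteins during the response. It read 291.2 for WT and 184.6 for ESAM-KO, 1.97-fold lower (log2 ratio -0.98), and its other probe read 139.2 and 116.4 (-0.58). Usp18, the protease that removes Isg15 and damps signalling at the receptor, was near background, at 13.9 and 17.2. It passed the background only in ESAM-KO, and its bound was below 1-fold, so no ratio is given.

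Of the genes of the ADP-ribosylation group, Parp14 and Parp9 were lower by more than 2-fold and Dtx3l was not. Parp14, which attaches single ADP-ribose units to proteins, read 340.4 for WT and 102.3 for ESAM-KO, 4.15-fold lower (log2 ratio -2.05). Parp9, whose protein forms a complex with that of Dtx3l, read 520.3 and 218.6, 2.97-fold lower (-1.57). Dtx3l, a ubiquitin ligase, read 693.9 and 479.7 (-0.85), and its other probe read 154.9 and 123.8 (-0.64). These 3 genes are neighbours on chromosome 16, in the order Parp14, Dtx3l and Parp9, and all 4 of their probes had a log2 ratio below 0.

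The guanylate-binding proteins are large GTPases that attack the vacuoles of intracellular pathogens. Gbp3 read 493.4 for WT and 178.4 for ESAM-KO, 3.45-fold lower (log2 ratio -1.79). Gbp2, separated from Gbp3 by 1 gene on chromosome 3, read 52.1 and 24.6, 2.64-fold lower (-1.40, error 0.29). The promoters of both carry the ISRE match shown above.

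The membrane proteins that restrict viruses were not lower as a group. Ifitm1, of the family that blocks fusion of viruses with the cell, read 326.3 for WT and 823.8 for ESAM-KO, 2.03-fold higher (log2 ratio 1.02). It was within 2-fold with each array set to its median, at 0.89, and with normexp, at 0.97. Ifitm3, its neighbour on chromosome 7, was the only gene of the list measured by 10 spots of a probe, and it read 11495 and 13082 (-0.13), with its spots between -0.21 and -0.07. Bst2, or tetherin, which holds budding viruses at the cell surface, read 858.4 and 930.5 (-0.20). Over the GTPases and membrane proteins with a probe, 2 of 5 were lower and 1 was higher by more than 2-fold, beside 8.43% and 6.99% of all named genes.

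Of the remaining genes, Samd9l, a myeloid regulator of growth and translation, read 338.8 for WT and 148.1 for ESAM-KO, 2.85-fold lower (log2 ratio -1.51). Its other probe read 213.7 and 166.8 (-0.68). Xaf1, which opposes an inhibitor of apoptosis, read 299.6 and 172.2 (-1.12), and its other probe read 34.4 and 7.48, the latter not well above background, at least 3.26-fold lower. Both genes were thus lower with each probe.

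Trim30a, a regulator of inflammatory signalling, read 50.4 for WT and 27.7 for ESAM-KO, 2.27-fold lower (log2 ratio -1.18, error 0.27). Ifi27, a small hydrophobic protein of cell membranes, read 4032 and 2444, 2.06-fold lower (-1.04). Ifi35 read 149.5 and 193.9 (0.06). Ifi44 read 19.6 and 3.32, the latter not well above background, at least 1.86-fold lower, so that this dim gene cannot be placed on either side of 2-fold.

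Probes of the same gene mostly lay on the same side of 0. Of the 8 genes of the list with 2 probes above background on both arrays, 7 had probes in the same direction (87.5%), with Irf1 as the exception. Over the 3056 named genes with several such probes the share was 58.1%. The shares cannot be compared directly, since the median ratio of all named genes was -0.02, and near 0 a probe changes direction easily. The median gap between the highest and the lowest probe of a gene was 0.19 on the log2 scale for the list and 0.47 over all these genes. The gaps cannot be compared directly either. Each of the 8 genes of the list had 2 probes, while other genes can have more, which widens the gap. For 3 further genes of the list, Ifih1, Xaf1 and Zbp1, the dimmer probe was above background on 1 array only. For Ifih1 and Zbp1 it went in the opposite direction to the brighter probe.

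**Figure D4:**
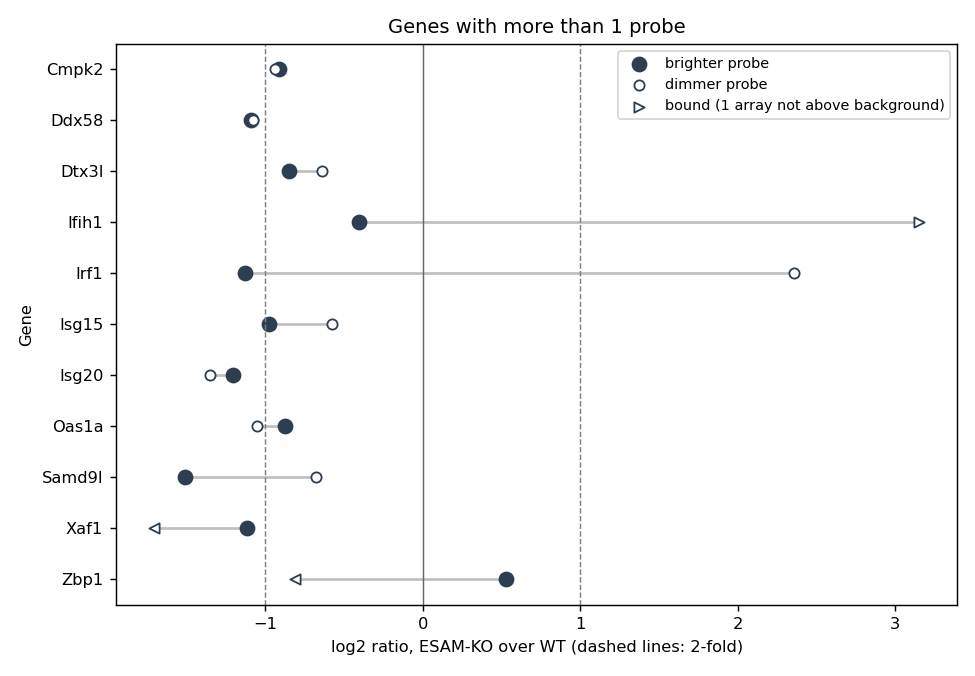
Log2 ratio of ESAM-KO over WT for each probe of the 11 interferon-stimulated genes with 2 probes, with filled points for the brighter probe, open points for the dimmer one and triangles for bounds. Dashed lines mark 2-fold. The probes of Irf1, Ifih1 and Zbp1 lie on opposite sides of 0, and those of the other 8 genes lie below 0.

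Upstream of these genes, some of the interferons themselves were detected. Of 15 ligand genes with a probe, 8 were above background on neither array, among them Ifnb1 at 3.28 and 3.41 and Ifng at 5.36 and 4.48. The 7 others were above background on both arrays with the brightest probe, among them Ifnl3 at 236.9 and 291.3 and Ifna12 at 205.5 and 246.0. The dimmer probe of Ifnl3, at 13.9 and 25.6, passed background only for ESAM-KO. That of Ifna12, at 19.2 and 6.56, passed it only for WT. With the brightest probes the 7 genes had log2 ratios from -0.36 to 0.21, with 0 past 2-fold, beside 15.4% of all named genes. Many interferon alpha genes are closely similar copies that their probes may not separate.

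The receptor chains were above background on both arrays except Ifnlr1. With the brightest probe, 0 of the 5 were past 2-fold, beside 15.4% of all named genes. Ifnar1 read 490.9 for WT and 390.6 for ESAM-KO (log2 ratio -0.65), and its dimmer probes were at -1.62 and -1.04. Ifnar2 read 1978 and 1303 (-0.92). The chains for interferon gamma were closer to 0, with Ifngr1 at 1504 and 1571 (-0.26) and Ifngr2 at 3505 and 3533 (-0.31). With the brightest probes, both chains of the type I receptor thus had lower ratios than those of the interferon gamma receptor.

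Of the kinases bound to the receptors, Jak1 read 1195 for WT and 1161 for ESAM-KO (log2 ratio -0.36), and Tyk2 read 20.3 and 45.5 (0.85, error 0.32). Over the signal transduction genes and inhibitors with a ratio or a bound, 1 of 17 was lower and 2 were higher by more than 2-fold, beside 8.43% and 6.99% of all named genes. The lower one was Pias1, an inhibitor of cytokine signalling, at -1.24, with its other probes at -1.27 and -1.001. All 3 probes passed 2-fold by less than the 0.32 that the scaling subtracts. The higher ones rested on bounds, at least 3.23-fold for Irf5, a transcription factor of interferon genes, and at least 2.11-fold for Socs3, a feedback inhibitor of cytokine receptors.

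Of the genes that sense nucleic acid upstream of interferon, 16 of the 22 with a ratio were below 0, beside 51.5% of all genes. Of these 22, 6 were lower by more than 2-fold (27.3%), beside 8.43% of all named genes, and 0 were higher, beside 6.99%. The median was -0.38, and probes disagreed for 2 of the 6, Irak4 and Rnaseh2a. Traf6 and Rnaseh2a passed 2-fold by less than the 0.32 that the scaling subtracts. Ikbke, a kinase that activates interferon regulatory factors, read 238.0 for WT and 49.5 for ESAM-KO (log2 ratio -2.58). Ifi204, a DNA-binding protein of myeloid cells, read 159.1 and 50.3 (-1.98). Unc93b1, which carries Toll-like receptors to endosomes, was at -1.34, and Traf6, a ubiquitin ligase downstream of these receptors, was at -1.01. Irak4, a kinase of the same pathway, was at -1.64, but its other probe was at 1.87. Rnaseh2a, a subunit of the enzyme that removes RNA from DNA, was at -1.05, with its other probes between -0.77 and 0.64.

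Of the other interferon-inducible genes, 31 of the 47 above background on both arrays had a ratio below 0, beside 51.5% of all genes, with a median of -0.38. Of 50 with a ratio or a bound, 11 were lower by more than 2-fold (22.0%), beside 8.43% of all named genes, and 1 was higher, beside 6.99%. These counts use the brightest probe. Of the genes within 2-fold by it, Sp110 had dimmer probes at -1.11 and -1.07, and that of Pml was at least 2.17-fold lower. Those of Herc6 and Pnpt1 were at 1.52 and 1.16. Of the 11, Tap1, Uba7 and Rtp4 passed 2-fold by less than the 0.32 that the scaling subtracts. Among the immunity-related GTPases, Irgm2 read 422.0 for WT and 40.5 for ESAM-KO (log2 ratio -3.70), Irgm1 was at -2.32 with its other probe at -1.77, and Igtp was at -2.03. The large GTPase Gvin1 was at -1.63, with its other probe at -1.45, and Gbp6 was at least 3.15-fold lower. Ifitm6 was at -2.58, in contrast to Ifitm1 and Ifitm3, and Slfn1 was at least 5.70-fold lower. Parp10, a relative of Parp14, was at -1.74, and Uba7, the enzyme that activates Isg15 for its transfer, was at -1.21. Tap1, a peptide transporter for antigen presentation, was at -1.29, and Rtp4 was at -1.17. Slfn8 was higher, at 1.36, with its other probe at -0.43.

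**Figure D5:**
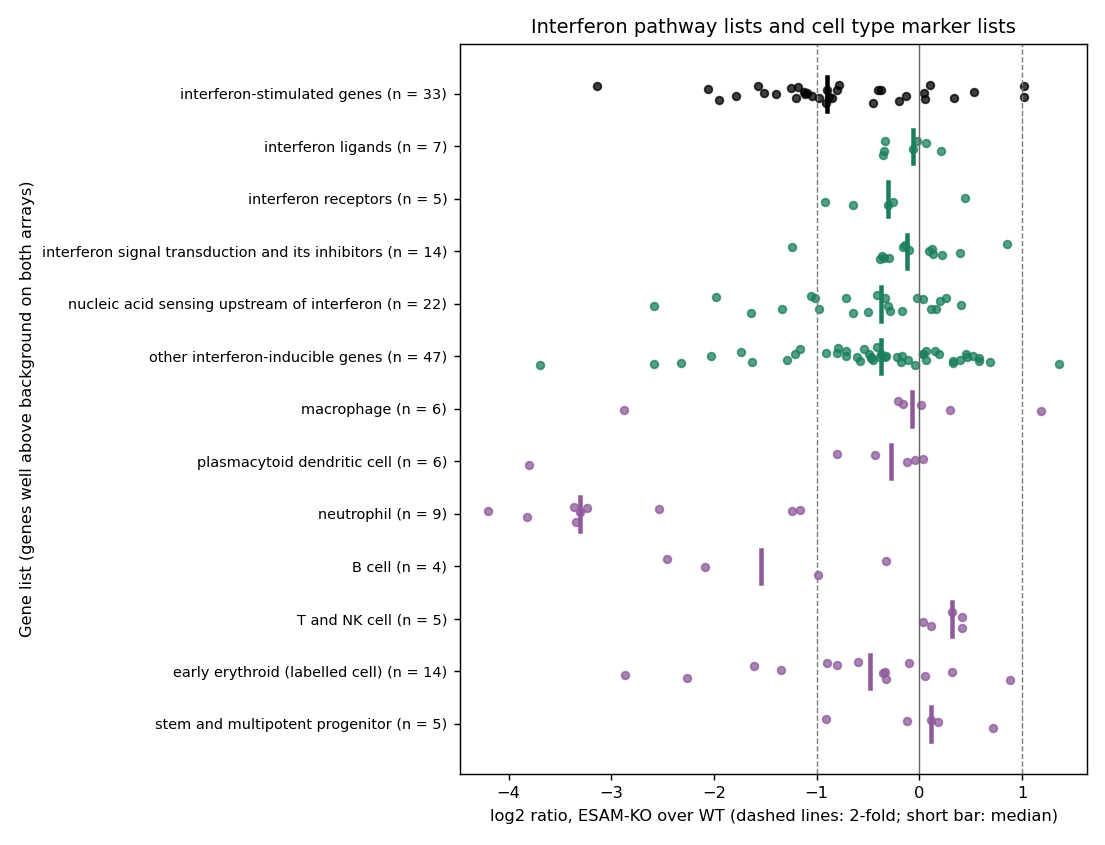
Log2 ratio of ESAM-KO over WT for the genes above background on both arrays of the interferon-stimulated list (black), of lists of the interferon pathway (green) and of cell type markers (purple), with a short bar at each median and dashed lines at 2-fold. The interferon-stimulated genes have a median of -0.89, the pathway lists lie between -0.38 and -0.06, and the neutrophil markers at -3.30 are the lowest.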

How the data were processed

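Pre CFU-E of WT and ESAM-KO mice given 5-FU were measured on 1 Agilent array per genotype, each from 3 pooled mice and labelled with Cy3 after whole transcriptome amplification. The authors deposited spot intensity values from Agilent Feature Extraction 10.10.1.1 (per the labels), corrected for background within each array and not scaled between arrays. A series table holds the same intensity rounded. Both arrays shared a slide and a scan, so no block could be fitted.

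Control spots and 254 outlier spots were left out, spots of a probe were averaged as log2, and the 75th percentile of the array was subtracted. A probe was above background if over 50% of its spots had that flag. The brightest probe represented a gene. Probes were named by matching accessions to RefSeq (GRCm38.p6), used for gene names, gene order and promoters only. A difference of more than 2-fold was the criterion, since 1 array per genotype allows no test. It was met by 1191 lower and 988 higher genes of the 14136 with a ratio or a bound. Interferon-stimulated genes past 2-fold, or whose probes disagreed, were named with all probes. Of the pathway lists, genes past 2-fold, receptor chains, Jak1 and Tyk2 were named. The value of 1 gene that this rule names is not reported here. Members and lists were chosen with earlier results of these data known. Marker genes were named after their values were seen. Other scalings, filters and probe summaries, normexp with an offset of 50 (limma 3.58.1, on median spot signals, as no mean spot signals were in the files) and the series table were the alternatives. Python 3.11.15, pandas 2.3.3, numpy 2.4.6 and R 4.3.3 were used, and the counting was tested on simulated data.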

Additional observations from a re-analysis of the deposited data

How the results depend on the processing

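No paired analysis was possible because there is only 1 array per genotype. The median log2 ratio of the interferon-stimulated genes was below that of all named genes under each of the 10 alternatives, with a difference of -0.88 in the report, and -0.58 with normexp and quantile normalization as the nearest to 0. A change of the scaling constant shifts every ratio alike, so that the alternatives of this kind cannot change the difference. Requiring both arrays above background cannot change it either, since the medians already used only such genes. Keeping outlier spots left it at -0.88. Without scaling, 7 genes of the list were lower by more than 2-fold and their median was -0.58, while 729 of all named genes were lower and 1804 higher, with a median of 0.30. With each array set to its median, 0 genes of the list were higher, and 1513 of all named genes were lower and 751 higher. With normexp and quantile normalization, 9 genes of the list were lower and 0 higher, with a median of -0.60, and 485 of all named genes were lower and 235 higher. Without the filter on dim probes, 2308 of all named genes were lower and 1800 higher. Of the 14 genes lower by more than 2-fold, 6 (Rsad2, Oas3, Parp9, Parp14, Gbp3 and Samd9l) were so under all 10 alternatives, as was neither of the 2 higher ones. Irf1, Ddx58, Oasl2, Isg20, Trim30a, Xaf1 and Ifi27 were within 2-fold without scaling, and Ddx58, Oasl2, Gbp2, Trim30a, Xaf1, Stat2 and Ifitm1 with normexp. Irf1 reversed with the mean of its probes, to 0.61. Of 339 ratios of single genes under the alternatives, 289 moved by less than the scanner error, 49 by more, and 1 reversed. Many of the 289 could not have moved, so their number is not a measure of stability. The background filters do not touch a gene above background on both arrays, and the mean of probes does not touch a gene with 1 probe. The series table holds the same intensity rounded, and keeping outlier spots left each ratio of the list as it was. Only genes past 2-fold could count as reversed. Among genes within 2-fold, Bst2 (0.12) and Ifitm3 (0.19) were above 0 without scaling. Eif2ak2 (-0.03), Ifi35 (-0.07) and Oasl1 (-0.08) were below 0 with each array set to its median, as was Oasl1 with quantile normalization (-0.04). The number of genes below 0 thus depends on the scaling. The pathway and marker lists were not run under the alternatives. Of the genes above background on both arrays, Oas2, Dhx58 and Gbp2, all dim, have the largest errors. With 1 array per genotype, precision is limited by the number of arrays.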
